A study of Mus musculus with 2 samples.

Results

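The cytosolic ribosomal protein genes were taken by their symbols, Rpl or Rps followed by the number of the protein and its suffix, together with Rplp0, Rplp1, Rplp2 and Rpsa. A gene entered when at least 1 of its annotated transcripts was typed protein-coding. The rule found 84 genes of 55536 annotated ones, of which 22015 are nuclear protein-coding genes. Of the 84 genes, 52 code for proteins of the large subunit and 32 for proteins of the small subunit. A subset of 7 genes carries the symbol of another member with l or l1 added (Rpl3l, Rpl7l1, Rpl10l, Rpl22l1, Rpl36al, Rpl39l and Rps27l), which leaves 77 genes without these like-named paralogs. A further 6 symbols fitted the pattern but had no protein-coding transcript (Rps4l, Rps12l1, Rpl32l, Rpl6l, Rps3a2 and Rps3a3). The 84 genes lie on 19 chromosomes, with 14 of them on chromosome 7 and 4 on the X chromosome.

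The series measured total RNA of the left cerebral cortex in female B6CASTF1/J mice at 2 months of age. This strain is the F1 cross between C57BL/6J and CAST/EiJ, so each cell carries an allele of either parent. There was 1 group of 2 biological replicates, with 1 library each from 300 ng of RNA and with ERCC spike-ins, synthetic RNAs of known amount. Both labels carry the same donor entry with differently numbered tissue pieces, and none says that these came from different animals, so the spread between the libraries may be technical. The libraries held 31196858 and 32292150 expected counts, and with no second condition no test between groups was possible. Of 7 cortex markers all were present, from Cldn5 of endothelium at a mean of 15.5 TPM to Snap25 of neurons at 1327 TPM, while Prm1, Acrv1 and Alb of testis and liver were at 0 and the muscle genes Ckm and Myh1 were at or below 0.17 TPM.

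Each cytosolic ribosome contains a single copy of nearly every ribosomal protein, the acidic stalk proteins being present in more, so the proteins are made in nearly equal numbers. Their mRNAs are short, abundant and stable, and most begin with a run of pyrimidines, the terminal oligopyrimidine or TOP tract, through which mTOR signalling controls their translation. In neurons they are translated in the cell body and are also found in dendrites and axons. Mammalian genomes hold many processed pseudogenes of these genes, intronless copies made from the spliced mRNA by reverse transcription, and short reads from the mRNA can match a copy as well as the gene.

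The following coding stretches are shown because the mRNA and a copy elsewhere in the genome are nearly or wholly the same in letters, so that a read inside them that covers no differing base cannot be placed by sequence alone. Coordinates are mm10, sequences are from the GENCODE M21 transcripts and read 5′ to 3′ on the coding strand, and capitals mark the base that differs. Rps23, a protein of the decoding centre, has its first 90 coding bases at chr13:90923196-90923672 on the plus strand, a span that includes 387 intron bases, and the processed pseudogene Rps23-ps1 holds the same letters without the intron at chr3:37714740-37714829. Rpl10, which joins the large subunit late in its assembly, has its first 90 coding bases at chrX:74271002-74271807 on the plus strand with 716 intron bases between them. The copy Rpl10-ps3 lies at chr9:50344852-50344941 on the minus strand and is annotated as protein-coding, not as a pseudogene. Rpl37 has its last 90 coding bases, 202 to 291, at chr15:5117681-5118633 on the plus strand with 863 intron bases, and the transcribed pseudogene Rpl37rt has them at chr5:115103231-115103320 on the minus strand.
Rps23: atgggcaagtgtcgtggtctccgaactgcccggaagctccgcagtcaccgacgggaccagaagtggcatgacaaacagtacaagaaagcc
Rps23-ps1: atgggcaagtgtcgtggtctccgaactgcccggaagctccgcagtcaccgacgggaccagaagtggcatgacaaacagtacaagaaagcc
Rpl10: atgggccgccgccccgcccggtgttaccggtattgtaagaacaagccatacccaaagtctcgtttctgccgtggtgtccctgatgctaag
Rpl10-ps3: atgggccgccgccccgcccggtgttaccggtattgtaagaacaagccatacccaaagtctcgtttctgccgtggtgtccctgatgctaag
Rpl37: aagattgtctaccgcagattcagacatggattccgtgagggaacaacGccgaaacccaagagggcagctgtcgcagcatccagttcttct
Rpl37rt: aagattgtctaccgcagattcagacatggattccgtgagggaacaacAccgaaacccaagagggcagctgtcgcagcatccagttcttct

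Over the coding sequence as far as it could be aligned, Rps23 and Rps23-ps1 had 0 substitutions in 425 of 429 bases, Rpl10 and Rpl10-ps3 had 0 in 642, and Rpl37 and Rpl37rt had 1 in 291. Rpl5 and its transcribed copy Gm15500 had 0 in 891, Rpl36a and Rpl36a-ps2 had 0 in 318, and Rpl21 and Gm10163 had 2 in 480. Rpl27 matched both of its copies, Rpl27-ps3 and Gm11518, with 0 substitutions in 408 bases each.

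Most ribosomal protein mRNAs were abundant in this cortex. The unit is TPM, which divides counts by the length of the transcript and sums to a fixed total per library, taken from the tables made from alignments, called alignment-based here. In bulk tissue, fewer cells of a type and less RNA per cell cannot be told apart. The median member had 166.7 TPM in replicate 1 and 157.2 in replicate 2 (162.0 ± 6.71, SD, n = 2), while the median nuclear protein-coding gene stood at 3.82 and 3.59 TPM. In both libraries 63 of the 84 genes reached 100 TPM, a level reached by 3.95% of nuclear protein-coding genes. Of the 84 genes 81 reached 10 TPM, and the same number reached 1 TPM, a level that 58.8% of nuclear protein-coding genes reached. The genes below 1 TPM were Rpl10l, Rpl39l and Rpl3l. Among nuclear protein-coding genes ranked by mean TPM, 6 members were in the highest 100 and 46 in the highest 500. Summed, the 84 genes took 3.33% and 3.36% of the TPM of nuclear protein-coding genes, but 0.677% of their counts in replicate 1, where no correction for length is made.

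**Figure D1:**
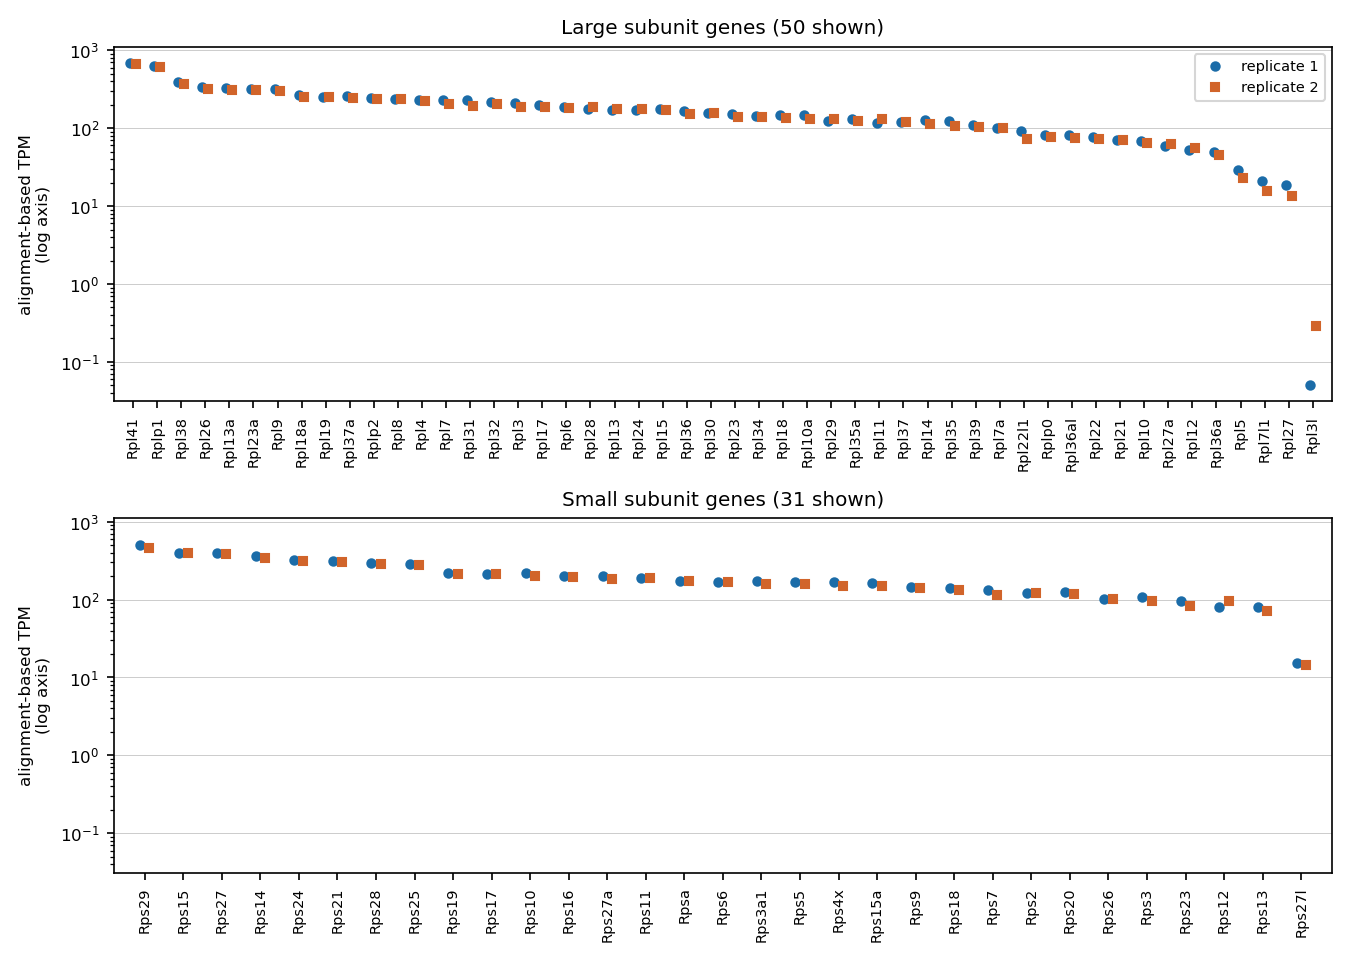
TPM of each ribosomal protein gene in the alignment-based tables on a log axis, 1 point per library, large subunit in the upper panel and small subunit in the lower; genes at 0 counts and 1 small subunit gene are not shown. Rpl41 and Rplp1 lie highest in the large subunit and Rps29 in the small one, and the libraries are furthest apart at the low end, as for Rpl3l at 0.05 and 0.29 TPM.

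In the large subunit, Rpl41, the smallest of the ribosomal proteins, was highest at 684.5 and 657.3 TPM. Rplp1, an acidic protein of the stalk that recruits elongation factors, followed at 620.9 and 615.8 TPM. Rpl38 stood at 394.3 and 370.4 TPM, Rpl26 at 333.0 and 320.4 TPM and Rpl13a at 332.5 and 306.3 TPM. Both libraries put these genes at similar levels. The other stalk proteins were lower than Rplp1 in each library, with Rplp2 at 244.9 and 236.0 TPM and Rplp0, which anchors the acidic proteins to the ribosome, at 80.96 and 78.08 TPM.

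At the low end of the large subunit, Rpl10l and Rpl39l, which are known from male germ cells, had 0 counts in both libraries. A level up to 0.159 and 0.148 TPM for Rpl10l, or 0.254 and 0.237 TPM for Rpl39l, the worth of 3 counts, cannot be told from 0 at this depth. Rpl3l, known from heart and skeletal muscle, had 1 and 7 counts, or 0.05 and 0.29 TPM. Next came Rpl27 at 18.87 and 13.47 TPM and Rpl7l1 at 21.27 and 15.68 TPM. Rpl5, which carries 5S rRNA into the ribosome together with Rpl11, had 29.27 and 23.03 TPM. Rpl27 and Rpl5 have near-identical copies that held most of the joint counts.

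In the small subunit, Rps29 led with 495.1 and 464.8 TPM, followed by Rps15 at 397.4 and 390.5 TPM and Rps27 at 390.4 and 379.8 TPM. Rps14 stood at 362.1 and 340.4 TPM and Rps24 at 319.7 and 313.8 TPM. The lowest was the paralog Rps27l at 15.25 and 14.62 TPM. It was followed by Rps13 at 79.95 and 71.72 TPM, Rps12 at 79.84 and 96.33 TPM and Rps23 at 94.81 and 83.39 TPM. Rps3, which lines the mRNA entry channel, stood at 106.8 and 95.27 TPM. These are levels of the gene alone. With near-identical pseudogene copies added, Rps23 stood at 442.9 and 412.6 TPM, Rps13 at 163.2 and 146.7 and Rps12 at 113.9 and 147.8. In the tables made from reads, Rps23 stood at 594.0 and 585.5 TPM, Rps12 at 291.7 and 303.0 and Rps13 at 162.9 and 164.6. Small subunit genes spanned a narrower range than large subunit genes, with quartiles of 131.3 and 245.7 TPM against 81.35 and 231.6 TPM in replicate 1. The median of the small subunit was 1.15 and 1.22 times that of the large subunit, but 0.915 and 0.937 times in the tables made from reads, so the order of the subunits was not the same in both. These quartiles and medians include the like-named paralogs, all of which but Rps27l belong to the large subunit. Among them Rpl10l, Rpl39l and Rpl3l lay below 1 TPM, and their part in the range and the order was not tested.

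Each library was also quantified by the authors from its reads and a transcript index, without those alignments, and these tables are called read-based here. There the median member stood at 328.1 and 317.1 TPM, and 78 of the 84 genes reached 100 TPM in both libraries. The median nuclear protein-coding gene was also higher there, at 6.25 and 6.16 TPM beside 3.82 and 3.59 TPM alignment-based. The mean TPM was higher than in the alignment-based tables for 78 of the 84 genes and lower for 4. No share over all genes was taken for these read-based numbers of members. TPM depends on the effective length, the number of positions a fragment can start from, which was shorter in the read-based tables: for Rpl41 it was 346.6 bases in the alignment-based and 200.2 in the read-based table of replicate 1, and its read-based level was 1574 and 1594 TPM. Of the 10 highest genes by each quantification, 6 were shared. Levels between genes therefore depended on the table, and the quantifications were compared on counts, each table scaled to its total over nuclear protein-coding genes.

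Near-identical copies were annotated transcripts that matched a member with an identity of 98% or higher, the match covering 80% or more of the shorter of the pair. They numbered 248 pseudogenes, 237 processed and 11 transcribed processed, and belonged to 68 of the 84 genes. Rpl21 had 16, Rpl7a 11 and Rps2 10. With copies of any annotated type the number was 259, of which 10 were annotated as protein-coding and 1 as a lincRNA. Of the counts of members and pseudogene copies together, the copies held 19.1% and 19.3% in the alignment-based tables and 9.41% and 9.35% in the read-based ones. At least 100 alignment-based counts were given to 61 and 64 copies, and at least 100 read-based ones to 30 in each library.

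The copies with the most counts showed how differently the quantifications gave out counts from the same libraries. Rpl3-ps1 held 2878 and 3135 alignment-based counts and 2685 and 3023 read-based counts, and Rps2-ps13 held 2851 and 3041 against 1762 and 1954, so both were sizeable either way. Gm15500, the copy of Rpl5, held 2541 and 2608 against 1930 and 1929 counts. Rps23-ps1 held 2314 and 2350 alignment-based counts but 10.4 and 0 read-based ones. Rpl10-ps3 held 2230 and 2111 against 0 in both libraries. A pseudogene of Rpl19, Rpl19-ps11, went the other way, with 124.8 and 106.1 alignment-based counts and 1421 and 1391 read-based ones. Whether a copy was transcribed cannot be told from reads that match the gene as well. Rpl3-ps1 and Rps2-ps13 were 99.8% and 99.2% identical to their genes, and reads over the differing bases were not counted apart.

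The 3 genes with the largest mean share of alignment-based counts in pseudogene copies were Rpl27, Rpl5 and Rps23. In replicate 1 the copies of Rpl27 held 82.4% of the joint counts, and those of Rpl5 and Rps23 74.0% and 74.2%. In the read-based table of that library the shares were 0 for Rpl27, 0.367% for Rps23 and 56.5% for Rpl5. For Rpl5 most of the joint counts thus lay in copies by both quantifications. For Rpl27 and Rps23 nearly none did so in the read-based table. For Rpl27 the copies Rpl27-ps3 and Gm11518, alike in sequence, were each given 515.1 counts in replicate 1 and 514.9 in replicate 2.

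Counts of 4 genes were over 2-fold higher in the read-based tables of both libraries, against 5.02% of 15287 nuclear protein-coding genes whose counts averaged 10 or more. Rpl27 had 220.4 and 163.6 alignment-based counts and 1263 and 1233 read-based ones, a scaled ratio of 5.34 and 6.99. Rps23 had 807.9 and 804.3 against 3184 and 3221 counts, a ratio of 3.68 and 3.72. Both libraries gave nearly the same ratio for Rps23. Rpl10 had 960.6 and 966.6 against 3259 and 3176 counts, a ratio of 3.17 and 3.05. Rpl21 had 1249 and 1316 against 2945 and 2991 counts, a ratio of 2.20 and 2.11. The next gene, Rpl36a, lay on both sides of the limit with 1.96 and 2.02. The members' share was close to that of all genes.

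Counts of 5 genes were over 2-fold lower in the read-based tables of both libraries, against 0.641% of nuclear protein-coding genes. Rpl36 had 954.9 and 932.2 alignment-based against 149.9 and 125.7 read-based counts, a ratio of 0.147 and 0.126. Rpl19 had 3341 and 3590 against 648.3 and 902.3 counts, a ratio of 0.181 and 0.234. Those were the lowest ratios among the members. Rps21 had a ratio of 0.245 and 0.242, Rps29 of 0.284 and 0.237 and Rplp1 of 0.324 and 0.304. Among the 81 members whose counts averaged 10 or more, the median ratio was 0.978 and 0.975, beside 1.005 over all genes tested in each library.

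When the counts of pseudogene copies were added to each gene in both quantifications, Rpl27, Rps23, Rpl21 and Rpl19 came within 2-fold and Rpl10 remained higher. With copies of any annotated type, a definition chosen after the values were seen because Rpl10-ps3 is annotated as protein-coding, none was higher and 4 were lower. These were Rpl36, Rps21, Rps29 and Rplp1. The number of members within 1.2-fold in both libraries went from 47 of 81 for the gene alone to 50 with pseudogene copies and 53 with copies of any type. No share of all genes within 1.2-fold between the quantifications was taken, so whether these numbers are unusual cannot be told.

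**Figure D2:**
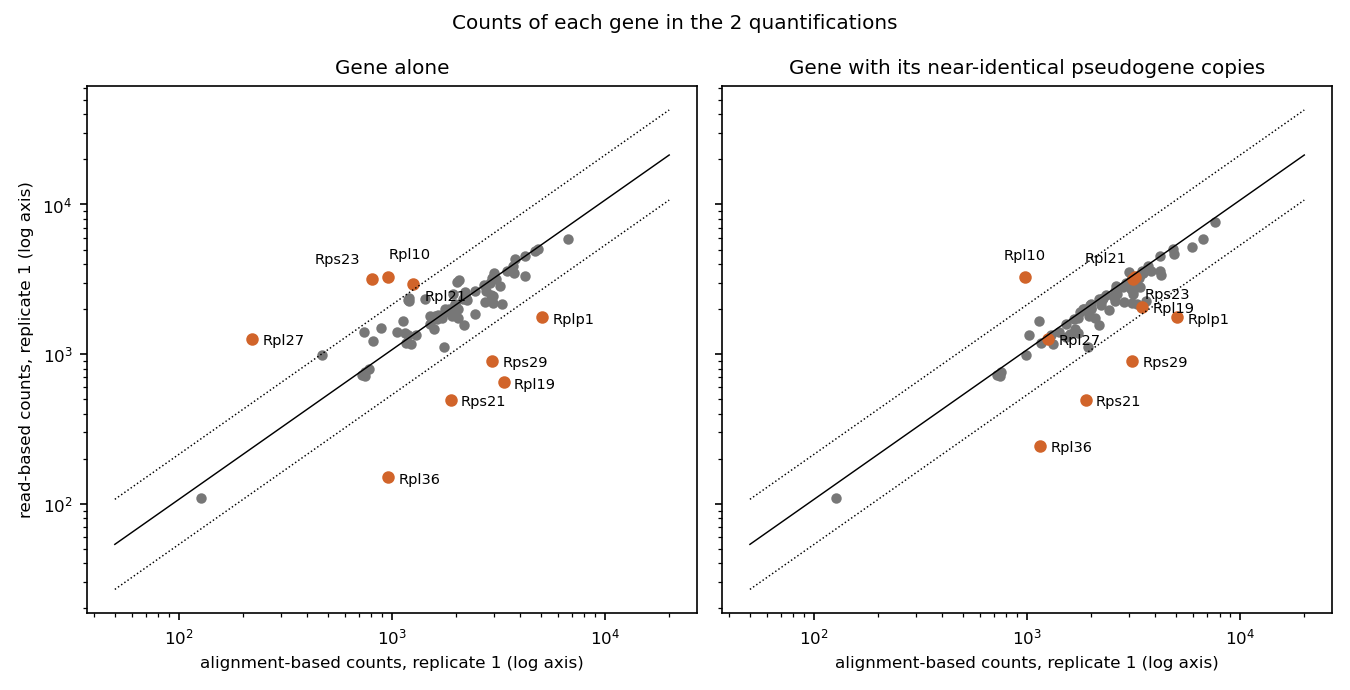
Counts of each ribosomal protein gene in replicate 1, alignment-based on the horizontal and read-based on the vertical axis (both log), for the gene alone (left) and with its near-identical pseudogene copies (right); the solid line marks equality after scaling, the dotted lines 2-fold, and the 9 genes over 2-fold apart in both libraries are orange. With copies Rpl27, Rps23, Rpl21 and Rpl19 fall between the dotted lines, while Rpl10, Rpl36, Rps21, Rps29 and Rplp1 stay outside.

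The spread of level over members also narrowed with the copies added. Over the 77 genes without like-named paralogs, the SD of log2 TPM was 0.91 and 0.94 for the gene alone and 0.64 and 0.65 with pseudogene copies. The highest of these genes stood 36.3 and 48.8 times above the lowest alone, and 9.68 and 9.85 times with copies. In the read-based tables the SD was 0.73 and 0.73 alone and 0.63 and 0.64 with copies. With copies the SD was nearly the same by both quantifications, while the highest gene stood 12.8 and 14.1 times above the lowest in the read-based tables. This comparison was chosen after the values were seen.

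The 4 genes that stayed lower in the read-based tables had short transcripts. In 5 members the longest annotated transcript was under 500 bases: Rpl36 at 383, Rpl38 at 457, Rps29 at 461, Rps21 at 481 and Rplp1 at 499 bases. With pseudogene copies counted, 4 of the 5 were over 2-fold lower, at 0.199 and 0.190 for Rpl36 and 0.269 and 0.218 for Rps29. Rpl38, a 5th short gene, had 0.779 and 0.772. Among other nuclear protein-coding genes, 22 of 44 with such short transcripts were lower (50%), and 61 of 15151 with a longer one (0.403%). Of the 76 members of at least 500 bases 1 was lower for the gene alone, Rpl19. The limit of 500 bases was chosen after the values were seen. For Rps21 the effective length in replicate 1 was 295.6 bases in the alignment-based and 100 bases in the read-based table, and the part of these lengths in the counts was not tested.

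**Figure D3:**
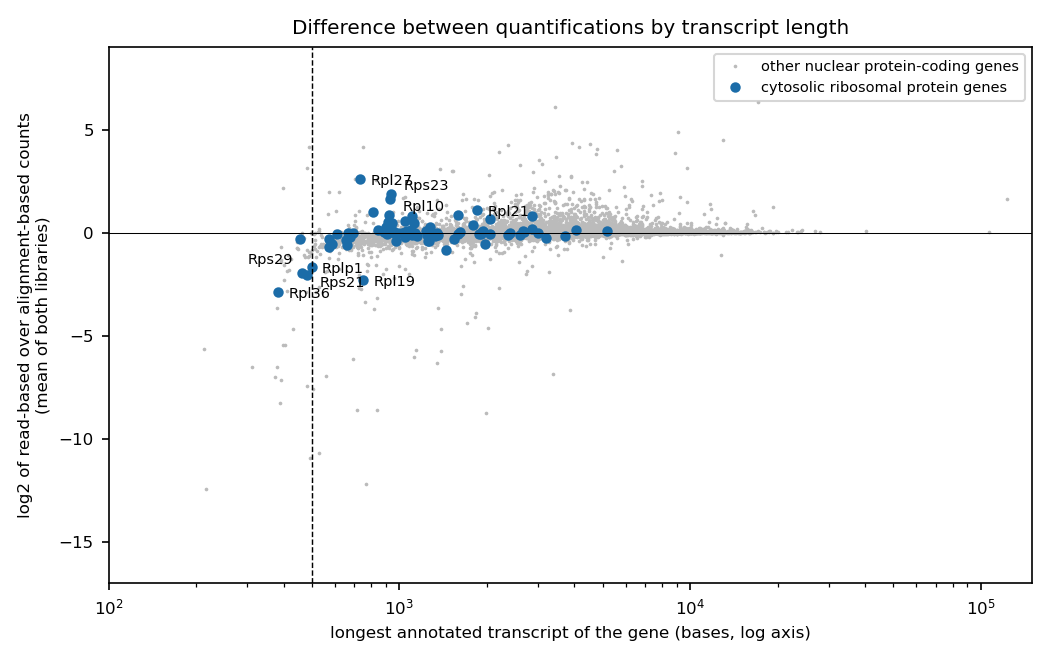
Log2 ratio of read-based to alignment-based counts (mean of both libraries, vertical axis) against the longest annotated transcript of each gene in bases (log axis), ribosomal protein genes in blue and other nuclear protein-coding genes in grey; the dashed line marks 500 bases. Rpl36, Rps29, Rps21 and Rplp1 lie left of the line and well below 0, and Rpl19 is the one member of longer transcripts as low as these.

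The like-named paralogs made up very different shares of their pairs. Rpl22 and Rpl22l1 were present at similar levels as gene totals over all transcript types. Rpl22 stood at 77.60 and 73.27 TPM and Rpl22l1 at 91.08 and 72.29 TPM. Transcripts typed protein-coding took 16.4% and 15.3% of the alignment-based counts of Rpl22l1, beside 95.7% and 96.8% for Rpl22. In the read-based tables they took 40.1% and 34.5%, beside 62.8% and 61.4%. The pair was therefore not shown to be at similar levels in protein-coding mRNA. Rpl22l1 took 54.0% and 49.7% of the pair (51.8% ± 3.06, SD, n = 2), so the order of the pair differed between the libraries, and 57.6% ± 1.85 in the read-based tables. Their coding sequences were 74.2% identical over 295 aligned bases, far from the near-identity at which reads are confused. Coding bases 175 to 264 of Rpl22 (chr4:152330061-152332301, plus strand) and 154 to 243 of Rpl22l1 (chr3:28806791-28807208, plus strand) are given for contrast with the near-identical copies, with capitals at the 26 of 90 positions that differ.
Rpl22: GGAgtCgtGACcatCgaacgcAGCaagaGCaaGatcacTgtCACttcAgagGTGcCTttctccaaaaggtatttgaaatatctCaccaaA
Rpl22l1: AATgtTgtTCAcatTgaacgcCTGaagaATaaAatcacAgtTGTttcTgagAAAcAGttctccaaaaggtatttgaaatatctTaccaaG

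Rpl36a and Rpl36al, 87.7% identical over 318 coding bases, gave an answer that turned on the copies. Rpl36a stood at 49.67 and 44.62 TPM and Rpl36al at 81.48 and 74.62 TPM. Rpl36al took 62.1% and 62.6% of the pair in the alignment-based tables, but 43.7% and 44.9% in the read-based ones and 33.4% and 34.3% with copies counted in. The leading member of the pair was therefore Rpl36al in the first and Rpl36a in the others. The pseudogene Rpl36a-ps2 held 513.1 and 476.7 alignment-based counts and 0 read-based ones.

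The remaining paralogs were minor or absent. Rpl7l1 took 8.50% and 7.07% of its pair with Rpl7, which stood at 229.1 and 206.3 TPM. Rps27l took 3.76% and 3.71% of its pair with Rps27, and Rpl3l 0.024% and 0.154% of its pair with Rpl3, which stood at 210.7 and 187.7 TPM. Rpl10l and Rpl39l took 0 by every setting, beside Rpl10 at 69.37 and 64.78 TPM and Rpl39 at 111.5 and 104.4 TPM. Rps4x stood at 167.5 and 149.5 TPM, and Rps4l, which has no protein-coding transcript, at 9.64 and 8.40 TPM. Of the 6 symbols without a protein-coding transcript, Rps3a2 was highest at 79.92 and 81.26 TPM.

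**Figure D4:**
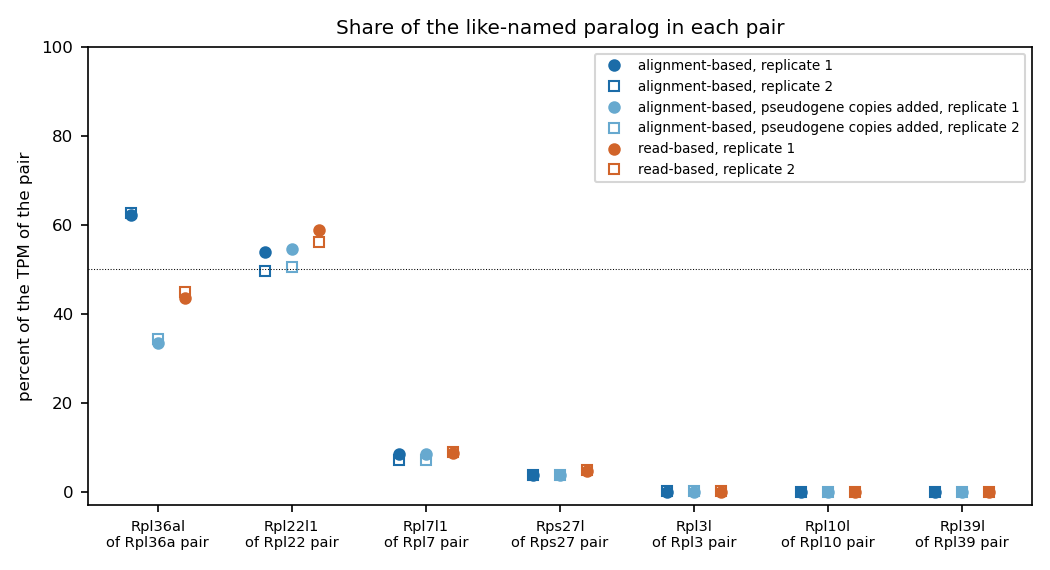
Share of the like-named paralog in the TPM of its pair for 7 pairs, all transcript types of a gene together, 1 point per library. Shown are the alignment-based tables, the read-based tables and the alignment-based tables with near-identical copies added. Rpl22l1 lies near 50% by each setting, Rpl36al falls from 62.4% to 33.9% with copies added, and the other paralogs lie below 10%.

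The quantifications also split each gene over its annotated transcripts in different ways. Transcripts typed protein-coding took 83.9% and 84.0% of the members' counts in the alignment-based tables and 74.1% and 73.9% in the read-based ones. Retained-intron transcripts took 7.77% and 7.73% against 13.7% and 13.8%, and those typed nonsense-mediated decay 3.77% and 3.84% against 2.25% and 2.43%. Of 81 members, 79 had the same leading transcript in both libraries in the alignment-based tables and 75 in the read-based ones. Between the quantifications 35 had the same leading transcript in replicate 1 and 38 in replicate 2. Of the 46 that differed in replicate 1, the read-based leading transcript was longer in 38 and shorter in 8. Their median leading length was 708 bases read-based and 555 bases alignment-based. None of these shares and numbers was taken over all genes, so whether they are particular to the members cannot be told.

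Rps24, known for alternative splicing of short exons near the 3′ end, led with different transcripts of the same kind. Rps24-202 had 288.0 and 281.9 TPM alignment-based and 180.7 and 173.1 TPM read-based. Rps24-207 had 1.67 and 2.62 TPM alignment-based but 391.1 and 410.2 TPM read-based. The share of protein-coding transcripts in the counts of Rps24 was nevertheless 90.6% and 92.7% against 90.3% and 91.7%. Rpl41 showed a like exchange, with Rpl41-203 at 640.8 and 616.4 TPM against 0 and Rpl41-204 at 0.70 and 2.33 TPM against 1058 and 1107 TPM.

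The lowest read-based shares of protein-coding transcripts, again of counts, were in Rps27l, Rps27 and Rpl37. Rps27l had 0 in both libraries, beside 87.3% and 100% in the alignment-based tables. Rps27, a zinc-binding protein, had 0.444% and 0.694% beside 97.4% and 96.9%. Its coding transcript Rps27-201, 345 bases long, had 382.3 and 369.0 TPM alignment-based and 0 read-based, while the retained-intron transcript Rps27-209 of 546 bases had 3.81 and 2.66 against 582.5 and 542.5 TPM. Rpl37 was low by both, with 23.1% and 21.1% against 1.47% and 1.15%, since Rpl37-204, typed as a processed transcript, led in every table. In scaled counts the gene totals of Rps27 and Rpl37 were not over 2-fold apart, while in TPM Rpl37 had 121.8 and 121.2 alignment-based and 610.7 and 627.5 read-based. In Rpl22l1 most of the alignment-based level, 74.21 and 58.17 TPM, was given to Rpl22l1-209, a processed transcript.

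Pyrimidine runs stood at the annotated starts of some of these genes and not of others. The sequences given are the 30 bases round the annotated start, on the strand of the gene, from the RefSeq promoter table on build GRCm38.p6, with the longest run of C and T that begins with C in capitals where it has at least 5 bases. Rpl27a lies at chr7:109519180-109519209 (plus), Rpl7a at chr2:26910792-26910821 (plus), Rpl35 at chr2:39005117-39005146 (minus), Rpl15 at chr14:18270972-18271001 (minus) and Rps10 at chr17:27635230-27635259 (minus). Rpl41 at chr10:128549154-128549183 (minus), the most abundant member, is shown as one without such a run in this window.
Rpl27a: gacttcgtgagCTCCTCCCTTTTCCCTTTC
Rpl7a: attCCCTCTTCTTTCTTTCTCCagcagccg
Rpl35: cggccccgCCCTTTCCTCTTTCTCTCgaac
Rpl15: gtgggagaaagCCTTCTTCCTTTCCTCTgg
Rps10: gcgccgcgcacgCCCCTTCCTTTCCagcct
Rpl41: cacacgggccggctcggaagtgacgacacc

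Of the 64 genes with a start window, 25 had no run of at least 5 bases and 13 had one of at least 10. Runs were not counted over the windows of all genes, so whether these numbers are unusual cannot be told. The runs were 19 bases long in Rpl27a and Rpl7a, 18 in Rpl35, 17 in Rpl15 and 13 in Rps10. The table matched 64 of the 84 genes with 76 start windows, among 32851 windows in all. Within 20 bases on either side of the start, CCTTT stood on the strand of the gene in 13 of 76 windows (17.1%), beside 4.57% of all windows, and on the other strand in 0, beside 4.65%. On the strand of the gene CTTTC stood in 19 windows (25%), beside 5.50% of all, and on the other strand in 4 (5.26%), beside 4.86%. The motif CTTCC was frequent on both, with 18 windows (23.7%) beside 8.81% of all on the strand of the gene and 13 (17.1%) beside 9.82% on the other. These motifs can overlap, and any of them stood in 33 windows (43.4%) on the strand of the gene, beside 16.0% of all, and in 15 (19.7%) on the other strand, beside 16.6% of all. CTTCCG, whose core is that of ETS factors, stood anywhere in the 300 bases in 27 windows on the strand of the gene (35.5%) and in 26 on the other (34.2%), beside 9.38% and 9.51% of all. TATAAA stood on the strand of the gene in 1 window (1.32%) in the 50 bases before the start, beside 2.63% of all windows. A match of letters is a description, and annotated starts may lie some bases from the used ones.

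Many members also span small nucleolar RNA (snoRNA) genes, most of which guide chemical changes of ribosomal RNA. Of the 84 genes 30 (35.7%) held at least 1 snoRNA gene on the same strand within their span, beside 259 of 22015 nuclear protein-coding genes (1.18%). They held 58 of 1507 annotated snoRNA genes, with 5 in Rpl4 and 4 in Rpl13a.

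Ribosomal and translation genes outside the symbols gave context for these levels. Fau, made as a fusion of a ribosomal protein with a ubiquitin-like protein, stood at 312.6 and 290.0 TPM, within the range of the members. Rack1, a scaffold on the small subunit, stood at 103.7 and 93.93 TPM. Of 16 other TOP mRNAs, which code for translation factors and related proteins, 7 reached 100 TPM in both libraries, with a median of 105.1 and 95.18 TPM. Eef1a1, which brings tRNA to the ribosome, led at 980.7 and 929.7 TPM, followed by Tpt1 at 441.6 and 416.9 TPM and Eef2 at 399 and 385.2 TPM, while Eif3f was lowest at 43.18 and 40.90 TPM. Eef1a2, the elongation factor form of mature neurons and muscle, stood at 616.9 and 590.2 TPM.

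Genes of ribosome assembly stood lower than the ribosomal proteins. Over 22 such genes the median was 21.6 and 19.5 TPM, and 1 reached 100 TPM, Rrp1 of ribosomal RNA processing at 169.0 and 144.8 TPM. Ubtf, which activates transcription of ribosomal DNA, had 61.41 and 60.49 TPM, Nop56 60.78 and 59.88 TPM, and Bysl was lowest at 8.65 and 8.02 TPM. Over 8 genes of ribosome rescue and quality control the median was 22.1 and 22.9 TPM. Gtpbp2, a partner of Pelo in rescue, was highest at 60.06 and 59.95 TPM, followed by Hbs1l at 31.62 and 30.31 TPM and Abce1 at 29.41 and 27.78 TPM, and Pelo was lowest at 9.56 and 8.34 TPM.

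The members were nearly equal in the cortex libraries. The ratio of replicate 2 to replicate 1 was taken on rounded expected counts after TMM scaling, with an exact Clopper-Pearson 95% interval, and it compares these libraries only. Over 81 members the median log2 ratio was 0.01, beside -0.001 over the 18562 genes whose counts averaged 10 or more. It was above 0 in 45 members and below 0 in 36. The interval lay wholly beyond 2-fold in 0 members, against 0.307% of all genes, and beyond 1.2-fold in 0 members in either direction, against 0.846% higher and 0.668% lower. The ratio itself was within 1.2-fold in 80 of 81 members, beside 80.4% of all genes. Where counts averaged 500 or more it was so in 100% of 78 members and 98.7% of 8159 genes, so at like depth the members' share was near the background. None of the genes outside the symbols that are named above for TOP mRNAs, assembly or rescue had an interval beyond 2-fold.

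Among the 81 members with enough counts, the widest differences were in Rpl27, Rpl11 and Rps12, all of which have pseudogene copies, as do most members. Rpl3l, with 1 and 7 counts, was too low for this comparison. Rpl27 had 220.4 and 163.6 counts, a log2 ratio of -0.44 (interval -0.75 to -0.15), and with its pseudogene copies counted -0.09. Rpl11 had 1436 and 1740 counts, a log2 ratio of 0.26 (0.15 to 0.36), and 0.08 with copies. Rps12 had 814.1 and 984.5 counts, a log2 ratio of 0.25 (0.12 to 0.39), and 0.35 with copies. Adding the pseudogene copies thus brought Rpl27 and Rpl11 towards 0 and took Rps12 further from it. The sum for Rps12 leaves out Rps12-ps3, an identical copy over 494 bases that is annotated as protein-coding. Rps12-ps3 had 1008 and 835.9 counts, lower in replicate 2, so the move of Rps12 holds for pseudogene copies only. Over the 81 members the SD of the log2 ratio was 0.09 alone and 0.06 with copies.

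**Figure D5:**
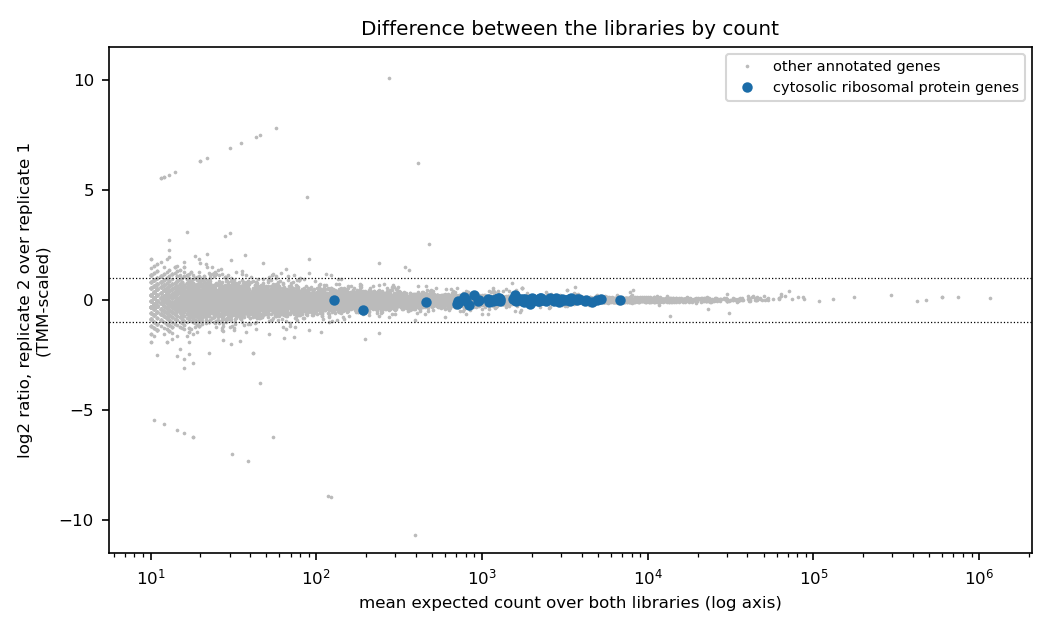
Log2 ratio of replicate 2 over replicate 1 after TMM scaling (vertical axis) against the mean expected count over both libraries (log axis), ribosomal protein genes in blue over all other annotated genes in grey, with dotted lines at 2-fold. The 81 members whose counts averaged 10 or more lie between -0.44 and 0.26 and follow the band of other genes at the same count.

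Some copies, in contrast to the members, were past the 2-fold limit between the libraries. Of 94 pseudogene copies whose counts averaged 10 or more, 8 had an interval beyond 2-fold (8.51%, beside 0.307% of all genes), 5 higher and 3 lower in replicate 2. The largest were a pair of copies of Rpl7a. Rpl7a-ps11 (chrX:166854211-166855011, plus strand) had 790.9 counts in replicate 1 and 0 in replicate 2, while Gm8226 (chr9:84423984-84424781, plus strand) had 9.74 and 810.3. The read-based tables made the same exchange, with 190.2 and 0.073 counts for Rpl7a-ps11 and 6.09 and 175.3 for Gm8226. The copies had 0 differences from each other over 798 aligned bases and 2 substitutions each from the coding sequence of Rpl7a. Rpl7a with all its copies had 3154 and 3244 counts, a log2 ratio of 0.02. A smaller exchange was seen in copies of Rpl30, where Rpl30-ps9 had 31.9 and 0 counts and Gm12191 had 0 and 28.2, but the read-based tables gave both copies 0 counts in both libraries. For Rpl17-ps3 the quantifications went opposite ways, with 2.95 and 22.7 alignment-based and 54.5 and 3.7e-05 read-based counts. These copies were chosen after their values were seen.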

How the data were processed

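Total RNA of left cerebral cortex was sequenced in 2 libraries of 1 group. The authors deposited 3 tables for each, on mm10 and the M21 release of GENCODE according to the accompanying file lists: a gene and a transcript table of expected counts and TPM from alignments, and a read-based transcript table of estimated counts and TPM. Names of the aligner and quantifiers are not given in the sources used. TPM has a fixed sum, so abundant short RNAs lower all other values, and CAST/EiJ reads were quantified against the C57BL/6J reference.

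The members, the further gene lists and the tests were chosen with earlier results of these data known. Named were the 5 highest and 5 lowest members of each subunit, all like-named pairs, the stalk proteins, all members called different, the 3 with the largest share in copies, Rps24 and the 3 with the lowest read-based coding share, and of each further list the 3 highest genes and the lowest; others were chosen after their values were seen. Not every gene taken in by this rule is reported here.

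Transcripts were summed to read-based gene values. Expected counts were rounded, and edgeR 4.0.16 (R 4.3.3) gave the TMM scaling, which set replicate 2 to 1.015 times replicate 1; log2 ratios used a prior count of 0.5. A gene was called different where its counts averaged 10 or more and the exact Clopper-Pearson 95% interval lay beyond 2-fold. This rule was tested on simulated data. Intervals and floors of 3 counts cover counting error only, since without molecular identifiers PCR reads are not independent. With 1 group there is no p-value. Copies were found with blastn 2.17.0, and each was given to its best-matching member. Alternatives covered the quantification, effective length, copies, thresholds, scaling (DESeq2 1.42.0) and leaving out each replicate. Python 3.11.15, pandas 2.3.3 and scipy 1.17.1 were used.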

Additional observations from a re-analysis of the deposited data

How the results depend on the processing

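The median nuclear protein-coding gene had a mean of 3.705 TPM alignment-based and 6.208 TPM read-based. With read-based values in place of alignment-based ones, the median member level went from 162.0 to 322.6 TPM, the summed level from 3.35% to 3.94% of nuclear protein-coding TPM and the ratio of small to large subunit medians from 1.18 to 0.926. With the full gene length as divisor these were 168.8 TPM, 2.93% and 1.29, and with pseudogene copies added 220.0 TPM, 4.31% and 1.08. The sum was 0.677% of expected counts and 1.52% of all deposited TPM. Of the paralog shares, Rpl22l1 went from 51.8% to 57.6% read-based, Rpl36al from 62.4% to 44.3% read-based and 33.9% with copies, Rpl7l1 from 7.78% to 8.84% read-based, and Rps27l from 3.73% to 4.82% read-based and 4.17% with the full length. The 4 members over 2-fold higher in the read-based tables became 10 at a 1.5-fold limit, 1 at 4-fold, 9 on TPM, 1 with pseudogene copies, 1 with copies at 95% identity and 0 with copies of any type. The 5 lower members became 3 at 4-fold and 2 on TPM. For the numbers under these other settings no share over all genes was taken. The spread of log2 TPM went from 0.92 to 0.73 read-based, 0.65 with pseudogene copies, 0.59 with copies of any type and 0.63 read-based with pseudogene copies. The cause of these moves was not tested. The 63 members at 100 TPM became 78 read-based and 74 with copies. In single libraries the median level was 157.2 to 166.7 TPM, the number of members at 100 TPM 63 to 64, the number higher read-based 4 to 5 and the spread 0.91 to 0.94. The median log2 ratio between the libraries ran from -0.02 with total counts to 0.02, and 0 members lay beyond 2-fold under each scaling tried. No paired analysis was possible because there is 1 group. Below 3 counts a level cannot be told from 0, which touches Rpl10l, Rpl39l and Rpl3l.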
